A study of Mus musculus with 84 samples.

Results

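The 9 genes through which the colon handles bile acids and short-chain fatty acids (SCFAs) were followed here at the level of RNA and of chromatin: the SCFA receptors Ffar2 and Ffar3, the bile acid receptor Gpbar1, the nuclear receptors Nr1h4 and Vdr, the SCFA transporters Slc5a8 and Slc16a1, and the bile acid transporters Slc10a2 and Abcc3. They were taken by gene symbol from the deposited RNA count table, where all 9 were found among 25494 genes, and all 9 passed the filter on low counts that left 15893 genes in all. Peaks of H3K27ac (histone H3 acetylated at lysine 27, a mark of active enhancers and promoters), of H3K4me1 (the monomethyl mark of enhancers) and of the transcription factor HNF4α were counted when they overlapped the gene locus extended by 10 kb on each side.

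RNA came from colon cells of germ-free male C57BL/6 mice that received stool bacteria of male donors by repeated gavage. The 4 groups crossed the diet of the recipient with the diet of the donor: HFDHFB mice ate the high-fat diet (HFD) and received bacteria of HFD-fed donors, HFDLFB mice ate the HFD and received bacteria of low-fat diet (LFD) donors, and LFDHFB and LFDLFB mice ate the LFD with the same 2 kinds of bacteria. Each group had 3 RNA libraries and 3 H3K27ac libraries, apart from 2 H3K27ac libraries of HFDHFB. H3K27ac and H3K4me1 were also measured in male and female C57BL/6 mice kept long-term on the HFD or the LFD, with 3 libraries per sex and diet, and HNF4α in 2 males per diet. The labels give no age and no genetic change in any group, and all recipients lacked bacteria of their own before transfer. RNA was prepared from cells scraped from the colon, whereas chromatin came from epithelium released with EDTA, so the RNA libraries can hold more cell types. The labels call the libraries replicates and do not name the animals, so p-values measure the spread between these libraries.

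SCFAs, the products of bacterial fibre fermentation, enter the colonocyte mainly through the monocarboxylate transporter Slc16a1 (MCT1) and the sodium-coupled carrier Slc5a8 (SMCT1), and are sensed from outside by the G protein-coupled receptors Ffar2 (GPR43) and Ffar3 (GPR41), which are well known from enteroendocrine cells and leukocytes. Bile acids escape the ileum, where Slc10a2 (ASBT) is their main apical importer, and are modified by colonic bacteria. They activate the membrane receptor Gpbar1 (TGR5), the nuclear receptor Nr1h4 (FXR) and, for secondary bile acids, Vdr, the vitamin D receptor. Abcc3 (MRP3) exports conjugated bile acids across the basolateral membrane.

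The RNA libraries held 39904191 to 48026846 counted reads. A single library stood apart from the rest: LFDHFB replicate 3 had a median correlation of 0.941 with the other libraries (log2 CPM, counts scaled to library size, across genes), against 0.963 to 0.977 for each of the others. In that library 8 ileal marker genes summed to 308 CPM, against 15.5 to 89.0 in the other 11, and 6 posterior Hox genes, a list added after the data were seen, summed to 32.6 CPM against 451 to 1010. The ileal genes did not all follow their sum. Fabp6 read 20.2 CPM in LFDHFB replicate 3 but 21.4 CPM in HFDHFB replicate 2, and Fgf15 had 3 reads in LFDHFB replicate 3. The absorptive colonocyte markers of LFDHFB replicate 3 stood at 20320 CPM (9388 to 14581 elsewhere), its enteroendocrine markers at 1422 CPM (276 to 836) and its enteric neuron and glia markers at 280.1 CPM (36.6 to 152). Epithelial markers summed to 11425 to 15898 CPM in all 12 libraries, and none of the 8 was at 0. Fold changes of the members that involve LFDHFB are therefore given with and without this library. The peak lists carry no read counts, so ChIP-seq depth is unknown. Libraries had 38317 to 51873 peaks for H3K27ac, 71853 to 79511 for H3K4me1 and 21308 to 27766 for HNF4α.

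Per length (RPKM, reads scaled to exon length and library size), the nuclear receptors and the transporters were expressed at high levels and the 3 membrane receptors at low levels. Vdr was highest with 150.5 ± 28.4 RPKM (SD, n = 12; range 117 to 206), at percentile 97.1 of all genes that passed the filter. Slc10a2 followed with 99.8 ± 123 RPKM, Slc16a1 with 78.1 ± 17.4 and Nr1h4 with 54.3 ± 11. Slc5a8 stood at 40.4 ± 9.33 RPKM and Abcc3 at 31.1 ± 5.93, at percentile 86.2. Without LFDHFB replicate 3 the mean of Slc10a2 was 66.0 ± 38.5 RPKM (SD, n = 11), below that of Slc16a1 with 81.5 ± 13.6. The step down to the membrane receptors was wide, with Ffar2 at 3.32 ± 1.69 RPKM (percentile 44.1), Ffar3 at 1.51 ± 0.773 and Gpbar1 at 0.319 ± 0.286 (percentile 13.1). Gpbar1 rested on 2 to 50 reads per library.

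The order at the low end held in every library: Abcc3 exceeded Ffar2, Ffar2 exceeded Ffar3 and Ffar3 exceeded Gpbar1 in 12 of 12, by means of 3.37, 1.13 and 2.58 in log2 RPKM. Among the abundant genes each neighbour was higher in 10 of 12 libraries, except that Slc10a2, despite its higher mean, exceeded Slc16a1 in only 3 of 12. The mean of Slc10a2 was carried by few libraries: its level spanned 27.3 to 472 RPKM, a ratio of 17.3 between the highest and the lowest library, whereas Vdr spanned a ratio of 1.77. Gpbar1 had a ratio of 23.6, at its few reads.

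**Figure D1:**
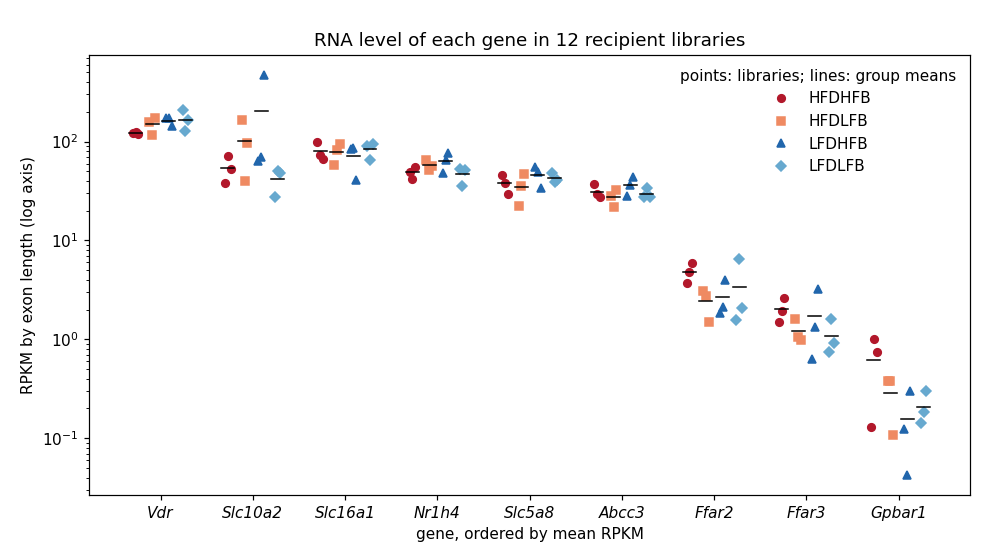
RNA level in RPKM (log axis) of the 9 genes, ordered by mean, in the 12 recipient libraries; points are libraries and lines are group means of 3. Vdr lies between 117 and 206 RPKM, Slc10a2 spreads from 27.3 to 472, and Gpbar1 lies lowest.

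The recipients allow the donor's bacteria to be compared at each diet, and the diet to be compared with each kind of bacteria. With edgeR's quasi-likelihood test, 0 percent of the 15893 genes passed an adjusted p of 0.05 in any of the 4 group comparisons or in the interaction of diet and bacteria, and 0 of 9 members did. At an unadjusted p under 0.05 there were 1441 genes for HFDHFB against HFDLFB, 592 for LFDHFB against LFDLFB, 1186 for HFDHFB against LFDHFB, 847 for HFDLFB against LFDLFB and 1794 for the interaction, with 0, 1, 2, 0 and 2 members among them. The smallest adjusted p of a member (edgeR) was 0.591, 0.975, 0.600, 0.881 and 0.386 in the same order. DESeq2, run as an alternative, called 80 genes (0.486 percent of those it tested), 0 genes, 116 genes (0.883 percent), 9 genes (0.0523 percent) and 35 genes (0.208 percent), and no member in any of them. For Gpbar1 in HFDHFB against LFDHFB it gave no adjusted p (DESeq2 unadjusted p = 0.026), so that member had no call there.

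Read without a test, the members were split in direction. The median log2 fold change over the 9 was 0.12 for HFDHFB against HFDLFB, 0.11 for LFDHFB against LFDLFB, −0.21 for HFDHFB against LFDHFB, −0.09 for HFDLFB against LFDLFB and 0.00 for the interaction, beside medians over all genes of −0.00, 0.02, −0.03, 0.00 and −0.05. The medians of the 9 involving LFDHFB, when its replicate 3 was left out, were 0.046 against LFDLFB, −0.10 for HFDHFB against LFDHFB and −0.0077 for the interaction. With all 12 libraries, between 4 and 6 of the 9 were positive in each comparison and in the interaction. A single member separated without overlap in each of 3 comparisons: Ffar2 was higher in HFDHFB than in HFDLFB, where 8.11 percent of all genes separated upwards and 4.9 percent downwards. Slc10a2 was higher in LFDHFB than in LFDLFB, against 5.25 percent upwards and 5.57 percent downwards, and Vdr was lower in HFDHFB than in LFDHFB, against 7.47 and 3.55 percent. No member separated between HFDLFB and LFDLFB, where 5.09 percent of genes did so upwards and 6.62 percent downwards. With 3 libraries against 3, the smallest p an exact permutation test allows for a single gene is 0.1. The comparisons share libraries, so they are not independent of each other.

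**Figure D2:**
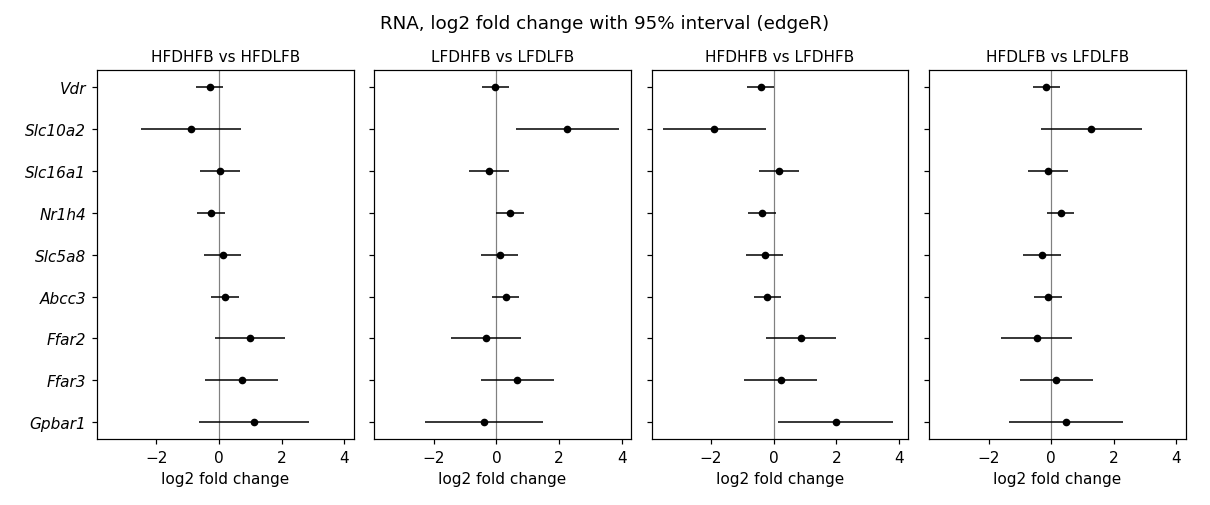
Log2 fold change of each of the 9 genes with its 95% interval, 1 panel per comparison (edgeR, 3 libraries per group). Most intervals cross 0. Those of Slc10a2 for LFDHFB against LFDLFB (0.61 to 3.92) and HFDHFB against LFDHFB (−3.53 to −0.26) and of Gpbar1 for HFDHFB against LFDHFB (0.15 to 3.81) do not, and none of these passed the adjusted threshold.

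Ffar2 and Ffar3, neighbouring genes on chromosome 7 (chr7:31603376-31608794 and chr7:31639349-31641197, both on the minus strand), had their highest group means in HFDHFB. Ffar2 read 9.34, 12.2 and 15.1 CPM in HFDHFB, 7.81, 6.96 and 3.77 CPM in HFDLFB, 4.67, 5.34 and 10.2 CPM in LFDHFB, and 4.02, 16.3 and 5.31 CPM in LFDLFB. All 3 HFDHFB libraries were above all 3 HFDLFB libraries, while the highest value of all was LFDLFB replicate 2. The log2 fold change of HFDHFB against HFDLFB was 0.98 ± 0.51 (SE, 95% interval −0.14 to 2.11, edgeR adjusted p = 0.591), and against LFDHFB it was 0.86 (interval −0.26 to 1.98, edgeR adjusted p = 0.768). For bacteria on the LFD the difference in Ffar2 was −0.34 (interval −1.46 to 0.77), and its interaction was 1.33 (interval −0.26 to 2.91, edgeR adjusted p = 0.520). Without LFDHFB replicate 3 the last 3 values of Ffar2 were 1.29, −0.77 and 1.75.

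Ffar3 ran between 1.02 and 5.25 CPM. It read 2.42, 3.16 and 4.23 CPM in HFDHFB, 2.60, 1.72 and 1.61 CPM in HFDLFB, 1.02, 2.17 and 5.25 CPM in LFDHFB, and 1.22, 2.60 and 1.49 CPM in LFDLFB. Its groups overlapped in every comparison. The log2 fold change was 0.73 (interval −0.43 to 1.89, edgeR adjusted p = 0.714) for HFDHFB against HFDLFB, and 0.67 (interval −0.49 to 1.83) for LFDHFB against LFDLFB, which became −0.15 without LFDHFB replicate 3. Enteroendocrine markers, the cells best known for both receptors, summed to 587 to 836 CPM in HFDHFB, 428 to 597 in HFDLFB, 398 to 1422 in LFDHFB and 276 to 635 in LFDLFB, with none of the 8 at 0. Leukocyte markers summed to 70.2 to 148 CPM over all 12 libraries. Epithelial markers summed to 13981 to 15898 CPM in HFDHFB and 11425 to 13703 in HFDLFB, without overlap. Adipocyte markers summed to 18.8 to 233 CPM and 187 to 1866 CPM in the same groups (median log2 fold change of the 8 genes −3.08), and mesothelial markers to 44.7 to 94.7 CPM and 84.8 to 478 CPM (median of the 7 tested −2.44). Smooth muscle markers summed to 1955 to 7053 CPM in HFDHFB and 1053 to 5073 CPM in HFDLFB (median of the 8 genes 0.77). Their sums were highest, at 4723 to 7053 CPM, in HFDHFB replicates 2 and 3, LFDHFB replicate 3, HFDLFB replicate 1 and LFDLFB replicate 2. Enteric neuron and glia markers were also highest in these libraries, at 131 to 280 CPM. The same libraries had the highest Ffar3. For Ffar2 the same held, except that HFDHFB replicate 1 stood above HFDLFB replicate 1. The part of these markers in the values of Ffar2 and Ffar3 was not tested, and in bulk samples fewer cells of a type and less RNA per cell cannot be told apart.

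Gpbar1 (chr1:74325174-74326163), the membrane receptor for bile acids, was near the limit of detection. HFDHFB libraries held 6, 50 and 33 reads (0.138, 1.08 and 0.801 CPM) and HFDLFB libraries 18, 17 and 5. LFDHFB libraries held 6, 2 and 15 reads and LFDLFB libraries 7, 9 and 14. The 2 highest values were thus HFDHFB replicates 2 and 3, and replicate 1 fell among the other groups. The log2 fold change of HFDHFB was 1.113 (interval −0.64 to 2.87, edgeR adjusted p = 0.711) against HFDLFB and 1.98 (interval 0.15 to 3.81, edgeR adjusted p = 0.635) against LFDHFB, the latter being 2.87 without LFDHFB replicate 3.

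The nuclear receptors varied less than the bile acid importer. Nr1h4 (chr10:88916979-88996367), which encodes FXR, read 115, 96 and 127 CPM in HFDHFB, 151, 118 and 132 CPM in HFDLFB, 111, 150.1 and 177 CPM in LFDHFB, and 123, 82.6 and 119.8 CPM in LFDLFB. The groups overlapped in each comparison, and the means moved in opposite directions with the donor's bacteria: the log2 difference of HFB against LFB was −0.25 (SE 0.20, edgeR adjusted p = 0.749) on the HFD and 0.43 (interval −0.01 to 0.87, edgeR adjusted p = 0.975) on the LFD. The interaction was −0.68 (interval −1.30 to −0.06, edgeR adjusted p = 0.424). Without LFDHFB replicate 3 the difference of Nr1h4 on the LFD was 0.27 and the interaction −0.52.

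Vdr (chr15:97684858-97738727), the most abundant member, read 694, 703 and 678 CPM in HFDHFB, with an SD of 12.5, the tightest of its groups. It read 892, 659 and 985 CPM in HFDLFB, 972, 973 and 819 CPM in LFDHFB, and 1166, 729 and 932 CPM in LFDLFB. Every HFDHFB library was below every LFDHFB library. The log2 fold change between them was −0.41 (interval −0.84 to 0.02, edgeR adjusted p = 0.691), and that between HFDHFB and HFDLFB was −0.29 (interval −0.72 to 0.14, edgeR adjusted p = 0.694). The difference of Vdr from LFDHFB was −0.49 without LFDHFB replicate 3. Absorptive colonocyte markers separated the same groups, with sums of 10411 to 12693 CPM in HFDHFB and 13836 to 20320 in LFDHFB, and their part in the level of Vdr was not tested.

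For the SCFA transporters the groups overlapped in every comparison. Slc5a8 (chr10:88348737-88392260) read 244, 202 and 158 CPM in HFDHFB, 118, 187 and 252 CPM in HFDLFB, 291, 264 and 182 CPM in LFDHFB, and 258, 206 and 219 CPM in LFDLFB. Both the lowest library and the library at 252 CPM were in HFDLFB. Its log2 fold change was 0.12 (interval −0.47 to 0.71) for HFDHFB against HFDLFB and −0.29 (interval −0.88 to 0.30) for HFDLFB against LFDLFB. Slc16a1 (chr3:104442587-104462385) read 441, 326 and 294 CPM in HFDHFB, 258, 364 and 418 CPM in HFDLFB, 376, 382 and 183 CPM in LFDHFB, and 397, 291 and 421 CPM in LFDLFB. The lowest of the 12 was LFDHFB replicate 3. Its log2 fold change was 0.03 (interval −0.61 to 0.67) for HFDHFB against HFDLFB and −0.24 (interval −0.88 to 0.40) for LFDHFB against LFDLFB, and the latter became 0.036 without LFDHFB replicate 3.

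Slc10a2 (chr8:5083219-5105287), the apical bile acid importer, was the most variable of the abundant members. It read 61.8, 117 and 86.8 CPM in HFDHFB, 271, 65.3 and 159 CPM in HFDLFB, 103, 114 and 768 CPM in LFDHFB, and 44.5, 81.2 and 78.8 CPM in LFDLFB. LFDHFB replicate 3 was far above the other libraries and HFDLFB replicate 1 came next. LFDHFB exceeded LFDLFB by 2.27 on the log2 scale (interval 0.61 to 3.92, edgeR adjusted p = 0.975), HFDHFB was below LFDHFB by a log2 fold change of −1.89 (interval −3.53 to −0.26, edgeR adjusted p = 0.600), and the interaction was −3.17 (interval −5.46 to −0.88, edgeR adjusted p = 0.386). Without LFDHFB replicate 3 the same values were 0.67, −0.29 and −1.57. The 2 other LFDHFB libraries still lay above all 3 of LFDLFB.

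In that library the basolateral bile acid transporter subunit Slc51a was also highest, with 334 CPM against 0.974 to 164 elsewhere. The ileal list summed to 22.2 to 69.1 CPM in HFDHFB, 50.1 to 89.0 in HFDLFB, 23.7 to 308 in LFDHFB and 15.5 to 21.7 in LFDLFB, with 0 to 2 of its 8 genes at 0 in a library. Absorptive colonocyte markers summed to 13836 to 20320 CPM in LFDHFB and 12213 to 12769 in LFDLFB, and the Hox list was lowest in LFDHFB replicate 3 and next lowest, at 451 CPM, in HFDLFB replicate 1. The part of these markers in the level of Slc10a2 was not tested. Abcc3 (chr11:94204609-94254290), the basolateral exporter, read 210.3, 169 and 155 CPM in HFDHFB, 162, 123 and 184 CPM in HFDLFB, 159, 209 and 249 CPM in LFDHFB, and 155, 192 and 156 CPM in LFDLFB. Its groups overlapped throughout, and its log2 fold changes lay between −0.21 (HFDHFB against LFDHFB) and 0.29 (LFDHFB against LFDLFB, interval −0.14 to 0.73). Without LFDHFB replicate 3, the highest of the 12 libraries, these values of Abcc3 were −0.047 and 0.13.

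**Figure D3:**
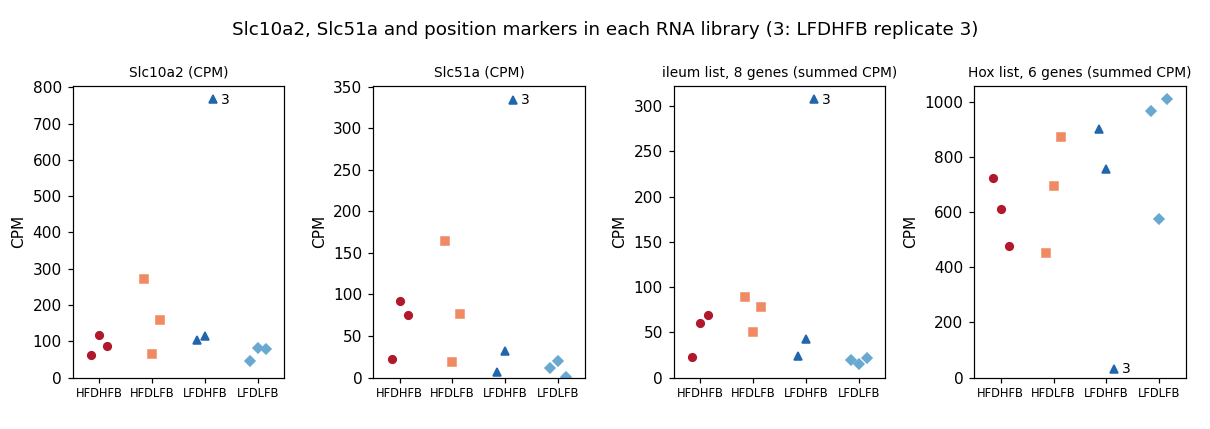
CPM of Slc10a2, of Slc51a and of the summed position markers in each RNA library, 3 libraries per group. LFDHFB replicate 3 has 768 CPM of Slc10a2 and 334 CPM of Slc51a, the highest of 12 in both, the highest ileal sum (308 CPM) and the lowest Hox sum (32.6 CPM).

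The other genes of these pathways were described by 9 lists of 81 genes, of which 71 passed the filter. In each of the 5 tests 0 of them passed in either direction, with a smallest adjusted p (edgeR) of 0.495, 0.975, 0.339, 0.881 and 0.386, and the median log2 fold change of the 71 ran from −0.16 to 0.05. Of 5 FXR target genes, Nr0b2 (0 to 2 reads) and Fgf15 (0 to 3 reads) were almost absent, whereas Fabp6 had 184 to 941 reads, Slc51a 45 to 14118 and Slc51b 837 to 5083. Of 4 VDR target genes, the catabolic enzyme Cyp24a1 had 0 to 8 reads and the calcium channel Trpv6 14 to 2438. The VDR target S100g, a calcium-binding protein, was at a log2 fold change of −1.87 (SE 0.53, edgeR adjusted p = 0.367) in HFDHFB against LFDHFB, and the calcium pump Atp2b1 at −0.91 (SE 0.24, edgeR adjusted p = 0.339). S100g read 97.4, 31.35 and 82.7 CPM in HFDHFB and 267, 166 and 350 CPM in LFDHFB. Atp2b1 read 302, 182 and 195 CPM in HFDHFB and 376, 336 and 574 CPM in LFDHFB. Both fold changes are given only with LFDHFB replicate 3, which was the highest library for both genes. Gcg, the proglucagon gene of enteroendocrine L cells, was at 1.202 (SE 0.33, edgeR adjusted p = 0.495) in HFDHFB against HFDLFB. These 3 were singled out after their values were seen.

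Patterns were compared over the 12 recipient libraries, which differ in their marker levels. Ffar2 and Ffar3 were correlated in log2 CPM (Pearson r = 0.80, n = 12, and 0.85 without LFDHFB replicate 3), as were Slc5a8 and Slc16a1 (0.65, and 0.80 without it), and Nr1h4 and Slc10a2 (0.64, and 0.39 without it). Ffar2 and Vdr ran in opposite directions (−0.82 in both cases). The genes with the most similar pattern were Mageh1 (0.94) and Hspa1b (0.94) for Ffar2, Tex9 (0.95) and Gpr75 (0.95) for Ffar3, and Atp13a2 (0.90) and Emc8 (0.89) for Gpbar1. For the nuclear receptors they were Rel (0.92, or 0.88 without LFDHFB replicate 3) and Pex11a (0.90, or 0.89) beside Nr1h4, and Eif4ebp2 (0.96) and Irf2 (0.92) beside Vdr. For the SCFA transporters they were Pawr (0.96) and Akap1 (0.95) beside Slc5a8, and Rgs16 (0.99) and C4bp (0.98) beside Slc16a1. For the bile acid transporters they were Fmo5 (0.95, or 0.89 without LFDHFB replicate 3) and Slc2a9 (0.94, or 0.86) beside Slc10a2, and Ece1 (0.92, or 0.89) and Dsc2 (0.92, or 0.88) beside Abcc3. Beside the other members some values rose and some fell without that library. All were picked as the highest of the 15893 genes, and 194 genes exceeded 0.9 beside Slc16a1. No correlation was tested.

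The 6 abundant members carried H3K27ac at their start throughout, and the less expressed Ffar3 and Gpbar1 did not. The start of Nr1h4, Vdr, Slc5a8, Slc16a1, Slc10a2 and Abcc3 lay inside an H3K27ac peak in 23 of 23 libraries, and that of Ffar2 in 21 of 23, the exceptions being LFDHFB replicates 1 and 2. The starts of Ffar3 and Gpbar1 lay in none. Of all 25494 gene starts, 37.1 percent lay in an H3K27ac peak in every library. H3K27ac peaks covered a median of 71.8 percent of the window of Slc16a1, 46.7 percent for Vdr, 39.7 percent for Nr1h4, 37.0 percent for Slc10a2, 36.2 percent for Abcc3, 25.2 percent for Ffar2, 16.0 percent for Gpbar1, 11.6 percent for Slc5a8 and 0 percent for Ffar3, beside a median of 4.86 percent over all genes. The windows of Gpbar1, Vdr and Ffar3 also hold the starts of other genes (Aamp and Pnkd, Hdac7, and Ffar1), and that of Abcc3 reaches into Ankrd40. Part of the coverage of these windows can belong to the other genes, and all H3K27ac peaks in the Gpbar1 window lay outside Gpbar1 itself.

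H3K4me1 peaks covered a larger median share of each member's window than H3K27ac peaks. The authors' peak calls joined windows over wider gaps for H3K4me1, and the part of this setting in the coverage was not tested. H3K4me1 covered a median of 31.6 percent of the Ffar3 window, with a peak in 12 of 12 libraries, while H3K27ac had a peak there in 3 of 23. The medians for H3K4me1 were 82.4 percent for Slc16a1, 59.4 for Nr1h4, 57.3 for Abcc3, 55.9 for Ffar2, 51.2 for Vdr, 41.8 for Slc10a2, 23.8 for Gpbar1 and 16.5 for Slc5a8, beside 13 over all genes. The H3K4me1 peaks took in the start of Ffar2, Nr1h4, Slc10a2 and Abcc3 in 12 of 12 libraries, but that of Slc16a1 in 1 of 12, of Vdr in 2 of 12, of Slc5a8 in 6 of 12, and of Ffar3 and Gpbar1 in 0 of 12. Of all gene starts, 14.6 percent lay in an H3K4me1 peak in every library.

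**Figure D4:**
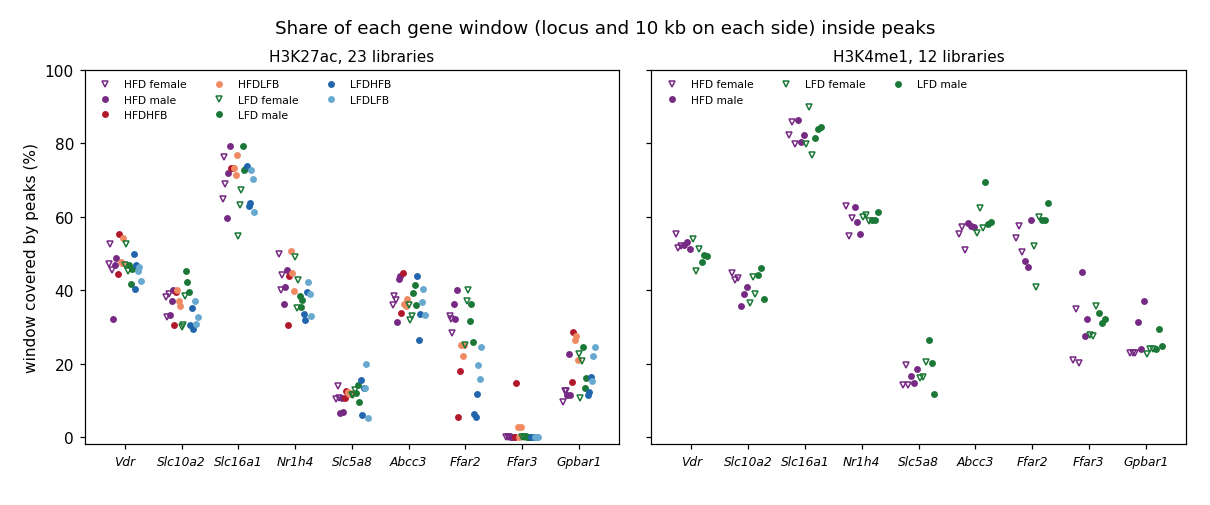
Percent of each gene window (the locus with 10 kb on each side) inside H3K27ac peaks (23 libraries) and H3K4me1 peaks (12 libraries), 1 point per library, colour by group, triangles for females. Slc16a1 is covered most (medians of 71.8 and 82.4 percent), and Ffar3 has H3K4me1 (31.6 percent) with a median of 0 for H3K27ac.

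Covered length was compared by two-sided exact permutation tests, with the diets permuted within each sex for the long-term mice, and diet or bacteria permuted within the other factor for the recipients. Over all gene windows tested, none passed after adjustment in any of the 4 comparisons. The smallest exact permutation p was 0.005 in each. With 17311 to 19991 windows, any could pass the adjustment only if a large share of them reached that p. The lack of passing windows therefore does not show a lack of change. Without adjustment, at an exact p of 0.05 or less, the long-term HFD gave more H3K27ac in 4.15 percent and less in 0.543 percent of 17311 windows, and more H3K4me1 in 2.08 percent and less in 1.77 percent of 19991 windows. None of the members passed in either. The Ffar3 window had no H3K27ac in any long-term mouse. The members nearest the threshold were Vdr, whose H3K4me1 averaged 38794 bp on the HFD and 36494 bp on the LFD (exact permutation p = 0.055), and Abcc3, with 39055 and 41950.0 bp (exact permutation p = 0.08). For both the libraries of the diets overlapped.

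In the recipients, bacteria of HFD-fed donors gave more H3K27ac in 1.05 percent and less in 2.79 percent of 17840 windows, and the window of Ffar2 was 1 of those with less. H3K27ac there covered 1400 and 4600 bp in HFDHFB and 1600, 1400 and 3000 bp in LFDHFB, against 6400, 5600 and 6400 bp in HFDLFB and 5000, 4000 and 6200 bp in LFDLFB. Within each diet every library with HFB was below every library with LFB. The mean difference within diets was −3100 bp (two-sided exact permutation p = 0.005, the smallest these permutations can give, and 1 after adjustment over all windows). The long-term mice, which kept their own bacteria, had 6400 to 10200 bp in this window whatever the diet (HFD mean 8567, LFD mean 8300.0, exact permutation p = 0.79). Both parts of the window contributed. Peaks at the gene covered 0 to 2800 bp with HFB and 2600 to 4400 bp with LFB, a mean difference of −2183 bp within diets, and LFDHFB replicate 2 had none. Peaks beyond the end of Ffar2 covered 0 and 1800 bp in HFDHFB and 1000, 1400 and 800 bp in LFDHFB, against 2000, 2200 and 2400 bp in HFDLFB and 1000, 1400 and 2400 bp in LFDLFB, a mean difference of −917 bp. The 2 kinds of bacteria separated there on the HFD and overlapped on the LFD. On RNA Ffar2 was highest in HFDHFB, in other libraries than those used for chromatin.

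**Figure D5:**
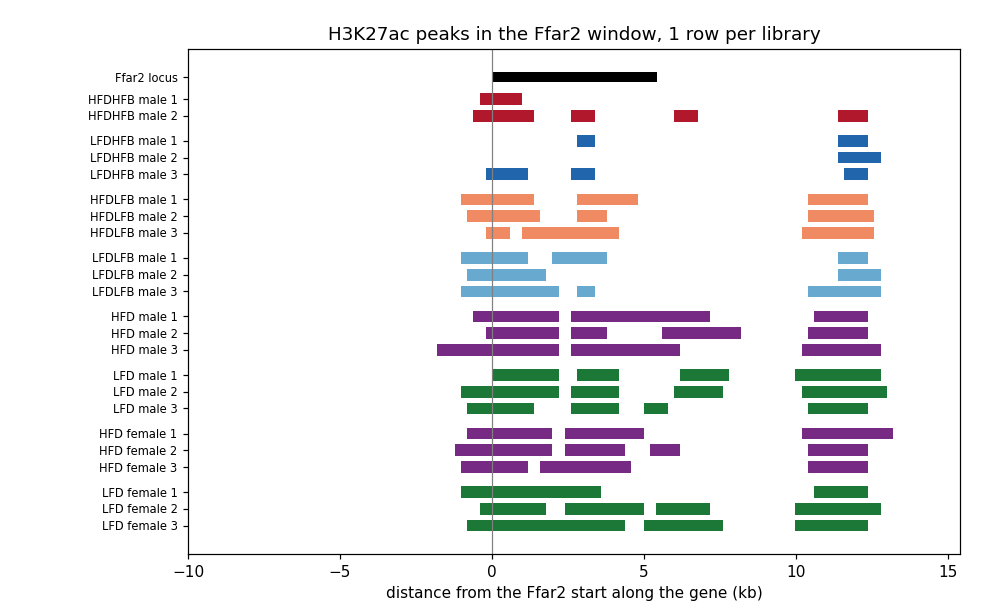
H3K27ac peaks in the window of Ffar2, 1 row per library, by distance in kb from the gene start. Peaks at the gene cover 0 to 2800 bp in the 5 HFB recipients and 2600 to 4400 bp in the 6 LFB recipients.

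By the diet of the recipient, 15.5 percent of windows had more H3K27ac on the HFD and 0.594 percent less, and 1 of 9 members was among the former. H3K27ac in the Gpbar1 window covered 3163 and 6000 bp in HFDHFB and 5563, 5763 and 4400 bp in HFDLFB, against 2400, 2563 and 3400 bp in LFDHFB and 3200, 4600 and 5163 bp in LFDLFB, a mean difference of 1357 bp (exact permutation p = 0.05, and 0.31 after adjustment). No H3K27ac peak lay on Gpbar1 itself, and the region found in all 23 libraries was centred 8226 bp from its start, beyond its end. The libraries of the diets overlapped, and a share of 1 in 9 is near the background. The mean difference was positive for the other members too, except Slc5a8, with exact permutation p from 0.08 to 0.9 over these 8.

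HNF4α, a nuclear receptor that maintains the enterocyte programme, was found at 7 of the 9 members in the long-term males. Merged over the 4 libraries there were 13 sites at Nr1h4, 9 at Abcc3, 6 at Slc16a1, 4 each at Vdr and Slc10a2, 2 at Slc5a8 and 1 at Gpbar1, the last within an untranslated region of Pnkd. Of the sites at Abcc3, 1 lay in a coding exon of Ankrd40. The windows of Ffar2 and Ffar3 held 0. An HNF4α peak was present in all 4 libraries in the windows of 6 of the 9 members and in 26.5 percent of all 25494 gene windows, whose lengths differ. Of these 39 sites, 11 (28.2 percent) had a peak in all 4 libraries, compared with 8494 of 49525 sites in the genome (17.2 percent). They were 2 each at Nr1h4, Vdr, Slc5a8, Slc10a2 and Abcc3 and 1 at Slc16a1, and lay in introns or between genes. Some sites were seen in 1 diet alone: 2 (5.13 percent) had a peak in both HFD libraries and no LFD library (introns of Nr1h4 at chr10:88989770-88990145 and of Abcc3 at chr11:94226678-94226939), and 3 (7.69 percent) in both LFD libraries and no HFD library (chr3:104442721-104442952 in an untranslated region of Slc16a1, chr8:5106913-5107164 upstream of Slc10a2, its centre at −1751 bp from the start, and chr11:94206446-94206721 in an intron of Abcc3). In the genome these classes held 1.88 and 3.16 percent of sites. The peak lists hold no read counts, and no single site was tested.

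The site in all 4 libraries that lay closest to a gene start was at Slc5a8, with its centre at −168 bp from the start. It is shown as the reference sequence of mm9 (plus strand, 5′ to 3′), since it sits at the promoter of the SCFA transporter that H3K27ac covered least.
Slc5a8 chr10:88348469-88348668: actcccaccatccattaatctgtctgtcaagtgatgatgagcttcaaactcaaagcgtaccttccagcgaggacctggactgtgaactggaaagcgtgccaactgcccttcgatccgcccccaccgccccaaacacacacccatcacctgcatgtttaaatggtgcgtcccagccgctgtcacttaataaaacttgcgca
None of the HNF4α cores searched for, CAAAGTCCA, CAAAGTTCA, CAAAGGTCA and CAAAGGCCA on either strand, was in these letters.

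Within a window of 250 bp around the site centre, a core was found in 2265 of the 8494 sites in all 4 libraries (26.7 percent), and in 1 of the 11 such sites of the members. No such share was computed over all sites of the genome, whatever their number of libraries. Of all 39 member sites 6 held a core. These are shown with the core in capitals, because a searched core lay in their window of 250 bp. Wider sites were not searched outside that window, and other forms of the HNF4α motif were not searched. The letters are of mm9 (plus strand, 5′ to 3′), and a core on the other strand reads as its reverse complement. The site of Slc10a2 lies beyond the 3′ end of the gene and had a peak in 4 of 4 libraries. The first 2 of Nr1h4 and both of Abcc3 are intronic, and the last of Nr1h4 lies at −9107 bp from the start. The second of Nr1h4 had a peak in 3 libraries, the first of Abcc3 in both LFD libraries alone, and the other 3 in 1 library.
Slc10a2 chr8:5076991-5077050: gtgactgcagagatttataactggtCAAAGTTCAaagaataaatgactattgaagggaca
Nr1h4 chr10:88955101-88955160: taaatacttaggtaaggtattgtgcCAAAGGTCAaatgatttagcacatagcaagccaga
Nr1h4 chr10:88975450-88975509: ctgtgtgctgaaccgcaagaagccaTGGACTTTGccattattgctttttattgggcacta
Nr1h4 chr10:89005381-89005440: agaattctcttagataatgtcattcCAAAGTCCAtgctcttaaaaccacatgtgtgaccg
Abcc3 chr11:94206559-94206618: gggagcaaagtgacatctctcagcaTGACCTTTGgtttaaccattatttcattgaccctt
Abcc3 chr11:94208538-94208597: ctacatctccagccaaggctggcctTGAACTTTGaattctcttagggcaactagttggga

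The nuclear receptor half-site AGGTCA, which overlaps the core CAAAGGTCA, was in 32.0 percent of the 8494 sites and in 1 of the 11 of the members. It was in 4 of all 39, for which no genome share was computed. Repeats were searched with a looser half-site, RGKTCA (R for A or G, K for G or T). Direct repeats of the looser half-site with a spacer of 3 bases, the arrangement bound by Vdr, were in 12 of the 8494 sites. Inverted repeats of it with a spacer of 1 base, the arrangement bound by FXR, were in 9, and neither was in any of the 39. A match is a string of letters in the window and not a measured binding position.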

How the data were processed

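The authors aligned ChIP-seq reads to mm9 (NCBIM37) with Bowtie 0.12.8, kept unique reads, removed duplicates with Picard 1.110, and called peaks in each library separately, using SICER (windows of 200 bp) for H3K27ac and H3K4me1 and HOMER for HNF4α. The gap over which SICER joined windows was wider for H3K4me1 than for H3K27ac. Peak files as deposited hold positions only, with no score or read number. RNA reads were aligned with STAR 2.5 per the labels, and the authors deposited 1 table of raw featureCounts 1.5.0-p1 counts per gene, not normalized. The strand setting and annotation of that counting are not given in the sources used here, so overlapping and antisense genes cannot be told apart.

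Gene counts were tested by edgeR 4.0.16 under R 4.3.3 (TMM, filterByExpr, quasi-likelihood F-tests, 4 groups in 1 fit, Benjamini-Hochberg adjustment over all genes, log2 CPM with a prior count of 2), and with DESeq2 1.42.0 as an alternative. SEs were |log2 fold change|/√F. CPM of members is TMM-scaled, and that of marker and pathway genes is per library total. RPKM used exon lengths of GENCODE vM1. The edgeR step was tested on simulated data for HFDHFB against HFDLFB. It recovered 37 of 83 genes planted at 2-fold, 49 of 55 at 4-fold and 54 of 62 at 8-fold, so a 2-fold change could be missed. Peak-covered length in the window of each gene (10 kb on each side) was compared by exact stratified permutation, adjusted over all windows. Sites were merged HNF4α peaks, and motif letters were read from the mm9 genome. Tables and sequences were handled in Python 3.11.15 (pandas 2.3.3, numpy 2.4.6, pysam 0.24.0), with the genome indexed by samtools 1.23.1 and figures drawn by matplotlib 3.10.9.

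The members, 9 pathway lists and 12 marker lists were chosen with earlier results of these data known. Genes named were the members, pathway genes past the threshold (0 in each comparison), FXR and VDR targets, and for each member the 2 genes of highest correlation. Gcg, and the fold changes of S100g and Atp2b1, fall outside this rule and were chosen after their values were seen. Of the marker lists, summed CPM over the 12 libraries ran from 16697 to 30560 for goblet, 1053 to 7053 for smooth muscle, 372 to 1719 for fibroblast, 16.0 to 1866 for adipocyte, 33.3 to 111 for endothelium and 44.7 to 478 for mesothelium. Input libraries were not used.

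Alternatives were DESeq2, other normalizations and filters, a replicate block, leaving out each library, other window widths, number of peaks, and share of covered length. Leaving out HFDLFB replicate 1 and LFDHFB replicate 3 together, and the Hox list, were added after the data were seen. ChIP-seq depth is unknown, and the number of libraries limits the precision.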

Additional observations from a re-analysis of the deposited data

How the results depend on the processing

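No member passed an adjusted p of 0.05 in any comparison under any of the 18 other settings, and the smallest member adjusted p in any of them was 0.388 for HFDHFB against HFDLFB, 0.728 for LFDHFB against LFDLFB, 0.212 for HFDHFB against LFDHFB, 0.533 for HFDLFB against LFDLFB and 0.190 for the interaction (edgeR or DESeq2). DESeq2 gave Gpbar1 no adjusted p in HFDHFB against LFDHFB. The number of genes called rose from 0 with edgeR to 80, 116, 9 and 35 with DESeq2 for HFDHFB against HFDLFB, HFDHFB against LFDHFB, HFDLFB against LFDLFB and the interaction, and stayed at 0 for LFDHFB against LFDLFB. The cause was not tested. Of 45 member fold changes 19 changed sign under at least 1 setting, in 51 of 800 values, and the largest of them was 0.67 on the log2 scale. Slc5a8 in HFDHFB against HFDLFB ran from −0.13 to 0.41 when 1 library was left out (−0.13 without both HFDLFB replicate 1 and LFDHFB replicate 3), Slc16a1 in HFDHFB against LFDHFB from −0.10 to 0.33 (−0.10 without both), Ffar3 in LFDHFB against LFDLFB from −0.15 to 1.07 (−0.15 without both) and Slc16a1 in LFDHFB against LFDLFB from −0.39 to 0.036 (0.037 without both). With a replicate block 0 genes and 0 members were called in each comparison. Same-numbered libraries of different groups correlated from −0.59 to 0.45 in their deviations from the group means. Differently numbered libraries were not compared, so whether the numbers pair the samples cannot be told.

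Of the member windows, 0 passed for long-term H3K27ac, and 1 (Slc5a8) did on the share of covered length. Leaving out 1 library gave 0 to 1. For H3K4me1 0 passed, against 1 (Abcc3) with windows extended by 50 kb and 0 to 2 with 1 library left out. For the bacteria of the recipients the single window (Ffar2) became 0 with 50 kb and 0 on the number of peaks, and 1 to 2 with 1 library left out. For the diet of the recipients the single window (Gpbar1) became 0 with 5 kb, 0 on the number of peaks and 0 on the share of covered length, and 0 to 6 with 1 library left out, the 6 being without HFDHFB replicate 1. The causes were not tested. Peak lists without read counts cannot separate depth from mark level.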
